A study of Mus musculus with 6 samples.

Results

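Type 2 help is the arm of the T cell response that works through interleukins 4, 5 and 13, and 10 genes of it were followed in the spleens of weanling mice exposed to lead (Pb) during development. They were the cytokine genes Il4, Il5, Il13 and Il10, the receptor gene Il4ra, the transcription factor genes Gata3, Stat6 and Maf, and Retnla and Arg1, which macrophages express under this programme. They were chosen by name, and a probe was taken where the platform annotation gave it the single symbol of a listed gene. This left 11 probes for the 10 genes, of 35587 probes and 18069 named genes on the array, with 2 probes for Maf and 1 for each other gene. Lead is known from other work to favour type 2 help. The Pb group held 3 female BALB/c mice that met 0.1 mM Pb from day 8 of gestation on, and the control group held 3 female BALB/c mice with no stated exposure. Each animal gave 1 array from whole spleen RNA at postnatal day 21, and the labels do not give litters or the route of exposure.

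Naive helper T cells that receive interleukin 4 through the receptor chain encoded by Il4ra activate the signal transducer STAT6, which raises GATA3, the factor that commits them to the type 2 fate. GATA3 and the factor c-Maf then act on the cytokine genes, Il4 among them, and their products act on B cells, eosinophils and macrophages. In macrophages STAT6 drives Retnla and Arg1, the usual marks of the alternatively activated state. In a resting spleen few cells make these cytokines, so whole-tissue RNA holds little of their transcripts.

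The region just before the start of transcription is shown for the 3 cytokine genes that define type 2 help and for Retnla, the gene with the smallest p-value among the 10. Each sequence is the 250 bases before the outermost start in RefSeq, build GRCm38.p6, read 5′ to 3′ on the strand of the gene. They cover chr11:53618666-53618915 on the minus strand for Il4, chr11:53634703-53634952 on the minus strand for Il13, chr11:53720544-53720793 on the plus strand for Il5 and chr16:48842359-48842608 on the plus strand for Retnla. Capitals mark matches on either strand to the STAT6 palindrome, in which TTC and GAA stand 4 bases apart. They also mark the GATA factor sites, spelled AGATAA, or likewise AGATAG, or with a first T as TGATAA and also TGATAG, and the core of the MAF recognition element, spelled TGCTGA.
Il4: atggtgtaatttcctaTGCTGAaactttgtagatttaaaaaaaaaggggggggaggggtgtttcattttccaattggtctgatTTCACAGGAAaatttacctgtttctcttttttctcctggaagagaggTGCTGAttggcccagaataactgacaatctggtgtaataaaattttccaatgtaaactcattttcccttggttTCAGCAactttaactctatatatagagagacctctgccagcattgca
Il13: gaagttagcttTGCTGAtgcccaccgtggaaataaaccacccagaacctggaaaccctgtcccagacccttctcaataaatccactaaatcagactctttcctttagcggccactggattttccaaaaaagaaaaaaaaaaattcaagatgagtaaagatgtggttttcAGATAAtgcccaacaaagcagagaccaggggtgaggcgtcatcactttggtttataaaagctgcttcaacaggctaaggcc
Il5: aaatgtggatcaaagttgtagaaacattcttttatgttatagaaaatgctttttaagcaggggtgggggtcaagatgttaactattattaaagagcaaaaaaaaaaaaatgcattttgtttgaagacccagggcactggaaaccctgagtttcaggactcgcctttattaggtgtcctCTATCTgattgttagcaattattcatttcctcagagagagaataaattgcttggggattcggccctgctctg
Retnla: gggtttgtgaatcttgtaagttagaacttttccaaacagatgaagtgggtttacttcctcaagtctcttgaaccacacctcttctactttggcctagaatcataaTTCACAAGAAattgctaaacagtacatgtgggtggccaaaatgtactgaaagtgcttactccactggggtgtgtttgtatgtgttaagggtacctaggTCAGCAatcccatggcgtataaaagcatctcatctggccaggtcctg
The STAT6 spacing stood once in Il4, 167 bases before the start, and once in Retnla, 145 bases before it, and 5.85% of 32851 promoter windows of this length held it. A GATA match lay 72 bases before the start of Il5 and 81 bases before that of Il13, against 26.5% of all windows. The MAF core stood 3 times in Il4, once in Il13, 239 bases before the start, and once in Retnla, 47 bases before it, and in 16.1% of all windows at least once. No marked matches overlapped. A match is a description of the letters, and no binding was measured. Il4, Il13 and Il5 neighbour each other on chromosome 11 in the RefSeq table, with Rad50 between Il13 and Il5. Windows were found for 7 of the 10 genes.

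Intensities are given as log2 values on a scale where the median probe of an array is near 0, and levels of different probes cannot be set against each other. Probes in the last 8 array rows, where the controls did not follow each other (r from 0.040 to 0.17), were left out, and no probe of the 10 genes lay there. The values of Pb replicate 3 were unrelated to those of the controls across probes (r from 0.046 to 0.048 over 34949 probes, against 0.95 between controls), so each comparison rests on Pb replicates 1 and 2 against 3 controls. The Stat6 probe shows it, with an intensity of 0.151 in Pb replicate 3, against 14.7 and 14.7 in the other Pb arrays and 15.1 to 16.5 in controls. Of the markers of the labelled tissue, 9 of 9 B cell, 11 of 11 T cell and 9 of 9 macrophage markers lay above the filter on dim probes. Of all 34949 probes 24464 did so too, as did 7 of 8 adipocyte and 5 of 12 liver markers. These counts alone therefore do not show which tissue was sampled. Of the 9 B cell markers 0 passed the test below, and 5 had a log2 difference above 0. Their differences lay between -0.33 and 0.53, with a median of 0.16. After correction 3 lay above every control in both Pb arrays and 0 below, against 13% and 11.9% of all probes without the filter. Those with the smallest p were Blk, a kinase of B cells, at 0.53 and the factor Spib at 0.32 (limma adjusted p = 0.62 for both). Genes of the exocrine pancreas were higher in both Pb arrays than in every control for 16 of 16 markers. Their summed intensity was 203 and 285 in Pb, against 23.1 to 25.8 in controls. Amy2a5, an amylase, had a log2 difference of 7.84 and Try5, a trypsin, 7.25 (limma without the filter, adjusted p = 0.11 for both). Both reach the filter through the Pb arrays alone, and with the filter their adjusted p was 0.0088. Their part in the results below was not tested.

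As deposited, several of these genes looked different between the groups. Il4, Il5, Arg1 and 1 Maf probe were above every control in both Pb arrays, and Il13, Stat6 and Retnla were below every control, 4 and 3 of 11 probes, or 36.4% and 27.3%. Over all 34949 probes the shares were 19.5% above and 17.6% below. After correction for position on the array, 0 of 11 probes lay above and 2 below, Gata3 and Retnla, or 18.2%. Of all probes 13% lay above and 11.9% below after correction, without the filter.

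**Figure D1:**
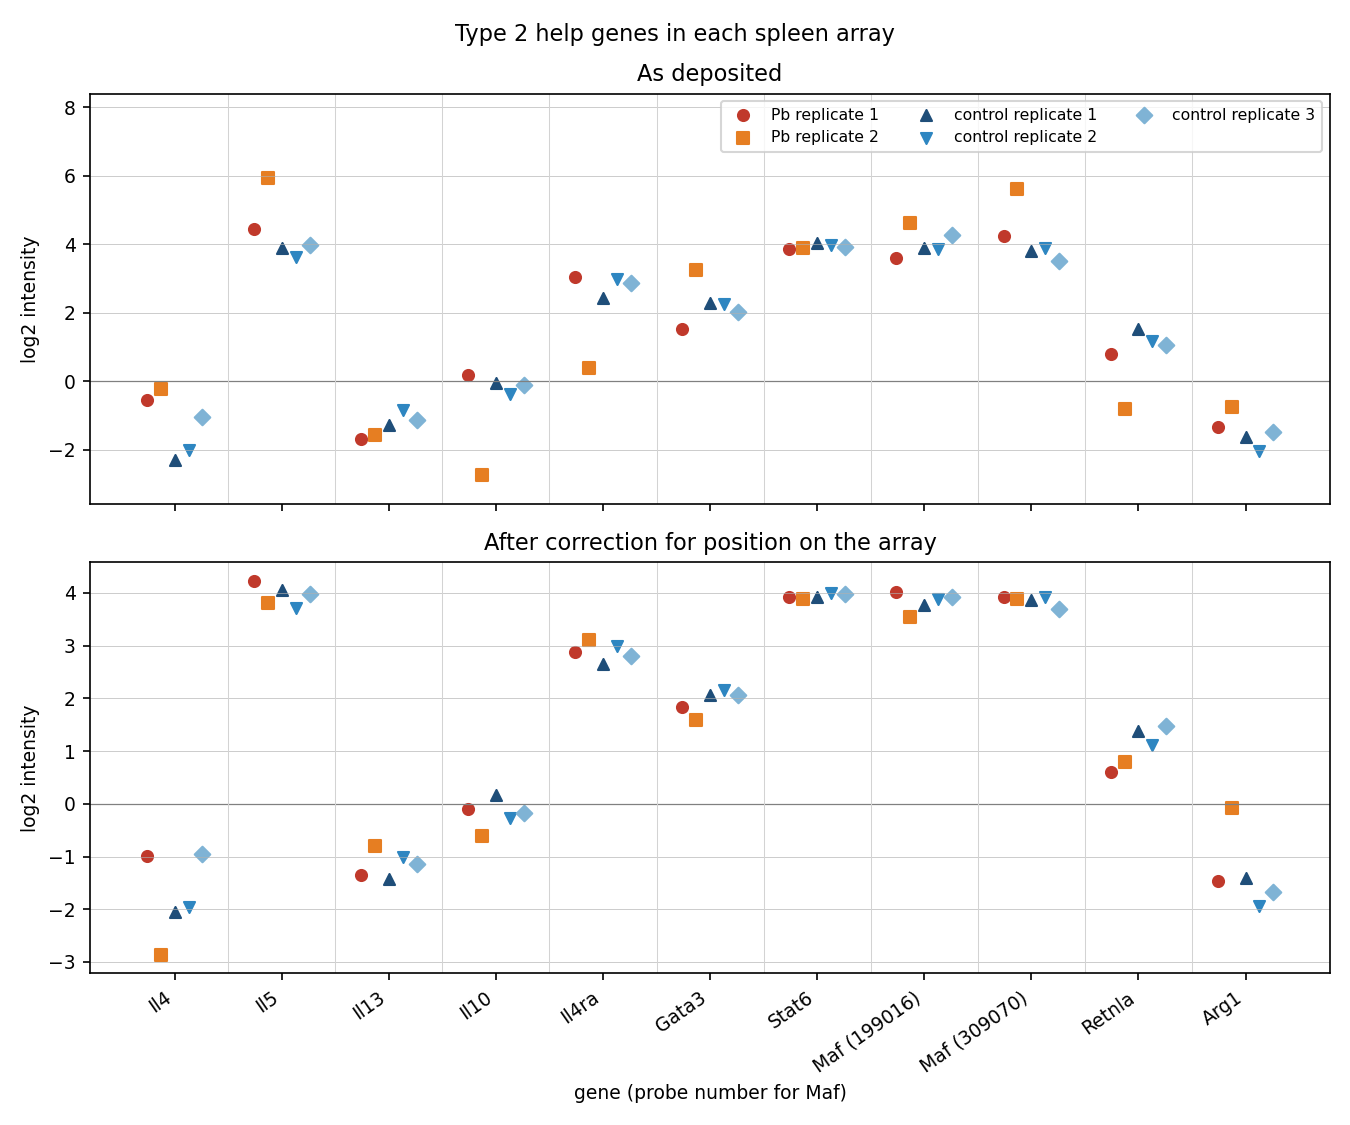
Log2 intensity of each gene in the 5 arrays used (circle and square, Pb replicates 1 and 2; triangles and diamond, control replicates 1 to 3), as deposited in the upper panel and after correction for position in the lower. As deposited, Il5 stood at 5.94 in Pb replicate 2 and Il10 at -2.73. After correction Il5 stood at 3.81, among the controls, and Il10 at -0.62, still below every control (-0.26 to 0.17).

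The brightness of Pb replicate 2 changed along the array, and most of these genes shared that change with the probes around them. For Il5 the 15 probes within 1 row and 3 columns had, as deposited, a median difference from the control mean of 0.35 in Pb replicate 1 and 2.45 in Pb replicate 2, while Il5 itself had 0.60 and 2.11. Il10 and Il4ra lie in the same array row, 68, and differed from the control mean by -2.56 and -2.38 in Pb replicate 2, where their neighbours had medians of -1.44 and -1.17. In Pb replicate 2 the difference of 9 of the 11 probes had the sign of their neighbours. The exceptions were Arg1, which was higher by 0.95 among neighbours at -1.59, and Stat6, at -0.11 among neighbours at 0.55. After correction the medians of the neighbours lay between -0.27 and 0.22 in both Pb arrays.

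**Figure D2:**
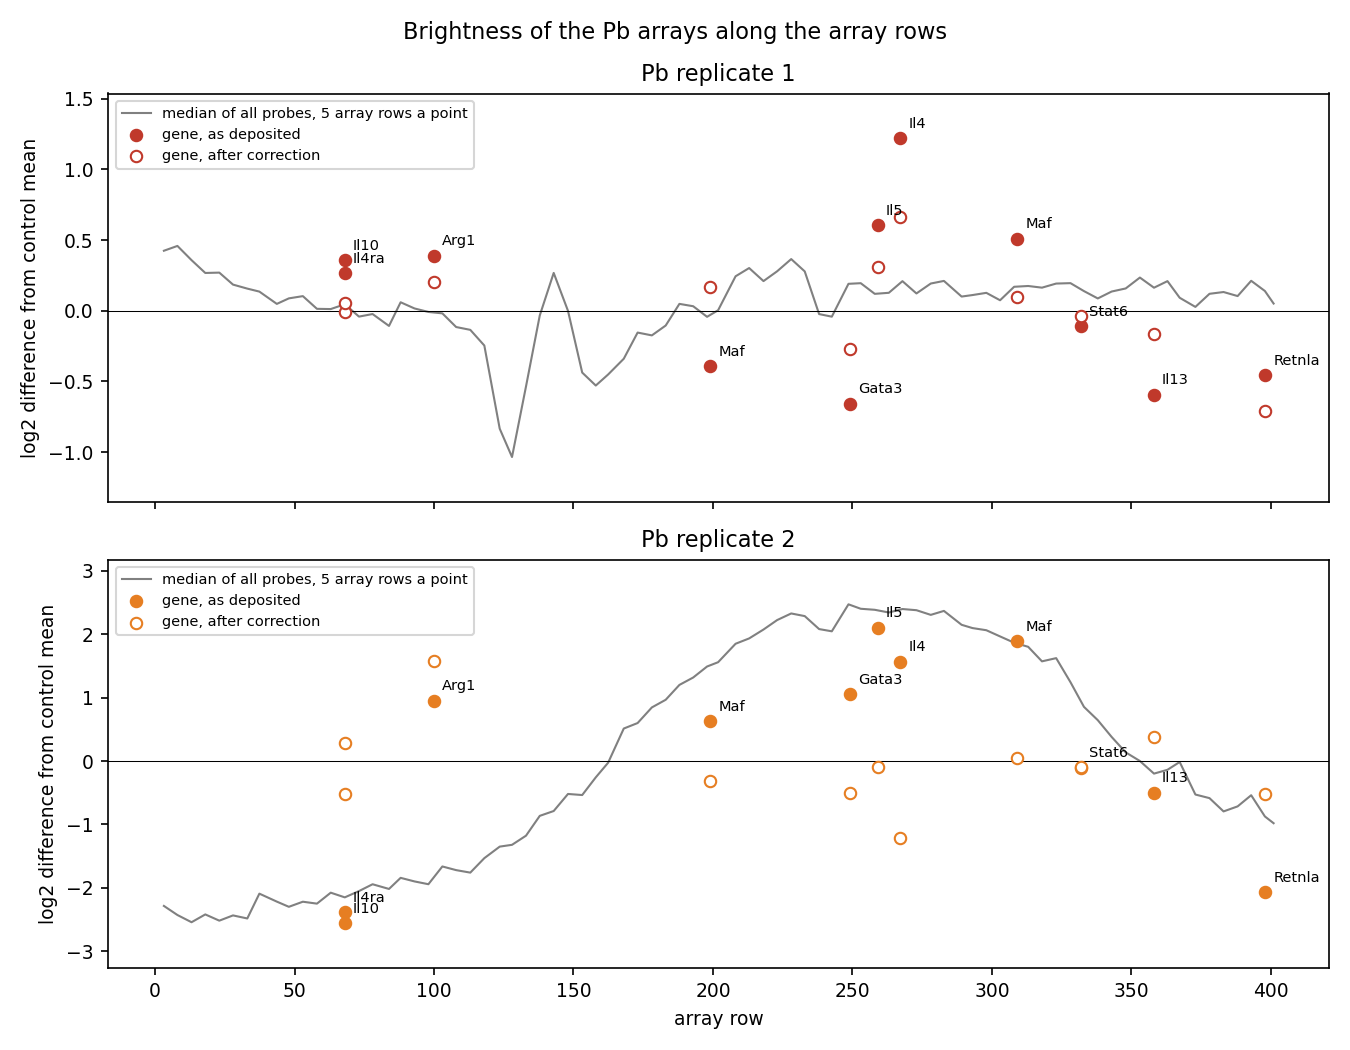
Log2 difference of Pb replicate 1 (upper panel) and Pb replicate 2 (lower panel) from the control mean against array row, as the median of all probes in steps of 5 array rows (line) and for each gene as deposited (filled) and after correction (open). In Pb replicate 2 Il5, Il4, Gata3 and Maf lie where the whole array was bright, and Il10, Il4ra and Retnla where it was dim.

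Among the 10 genes, 0 passed the adjusted threshold of 0.05 (limma, Benjamini-Hochberg over 24464 probes tested, of which 0.0572% passed). Of the 11 probes 10 had a mean above the filter, the 30th percentile of all probes at a log2 level of -1.56, and Il4 did not. Arg1 reached it through the Pb arrays alone. At an unadjusted p under 0.05 there was 1 lower probe, Retnla, and 0 higher, where 3.29% of all probes were lower and 3.93% higher. The balance of those calls turned with the processing, at 962 higher and 806 lower as reported. There were 724 higher and 1052 lower when arrays were scaled to their 75th percentile. A surface that does not depend on level gave 425 higher and 1985 lower, and the median of neighbours subtracted instead gave 737 and 1310. The log2 difference, Pb minus control, was above 0 for 5 probes and below 0 for 6. With 1 probe a gene its median was 0.0053, and it was 0.028 over all probes tested. The 95% confidence intervals, which limit what 2 arrays against 3 can show, are given with each gene.

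**Figure D3:**
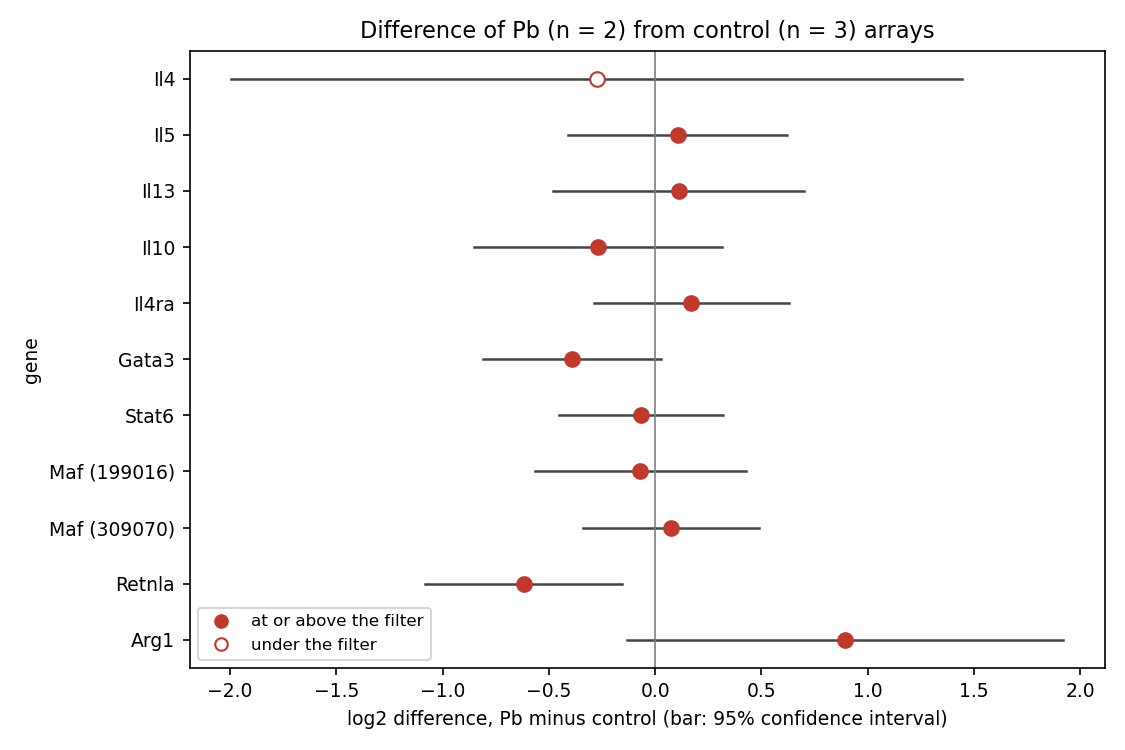
Log2 difference of each gene, Pb minus control, from 2 Pb and 3 control arrays after correction, with the 95% confidence interval of the limma fit as a bar and Il4, under the filter, as an open circle. The interval of Retnla (-1.08 to -0.16) lies below 0, and the other intervals include 0.

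Of the cytokines, Il4, the defining product of type 2 helper cells, was dim on each array. Its intensity as deposited was 0.677 and 0.858 in the Pb arrays, against 0.203, 0.247 and 0.487 in the control arrays. After correction the log2 level was -0.99 and -2.86 in the Pb arrays, against -2.05, -1.96 and -0.96 in the control arrays. The 2 Pb arrays thus lay 1.87 apart and the groups overlapped. The log2 difference of -0.27 had an interval from -1.99 to 1.45 (limma without the filter, adjusted p = 0.92), so that neither a fold of 0.251 nor one of 2.72 is outside it. Without Pb replicate 2 the difference was 0.66, without Pb replicate 1 it was -1.20, and without control replicate 3 it was 0.089. No sign can be given for Il4 at this level of signal.

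Il5, the growth and survival factor of eosinophils, had a bright probe and a narrower interval. What share of the signal of this probe is Il5 transcript was not tested. Its intensity as deposited was 21.7 and 61.3 in the Pb arrays, against 14.8, 12.4 and 15.7 in the control arrays. After correction it stood at 4.22 and 3.81 in Pb, against 4.05, 3.71 and 3.97 in controls, and the groups overlapped. The log2 difference was 0.11 (SE 0.21, interval -0.41 to 0.62, limma adjusted p = 0.87), a fold between 0.754 and 1.54. Without position correction it was 1.35 (adjusted p = 0.31), where the neighbours were brighter than controls as well. Without Pb replicate 1 it was -0.055. Among markers of eosinophils, mast cells and basophils, 0 of 14 passed, and 2 lay above and 2 below every control. Of all probes without the filter, 13% lay above and 11.9% below. The summed intensity of the 14 was 70.8 and 70.2 in Pb, against 62.7 to 65.9 in controls. Without the brightest probe, that of the mast cell tryptase gene Tpsb2, the sum was 42.1 and 43.7 in Pb, against 40.5 to 43.6 in controls. The median of the list was 0.051, or 0.00080 when the probes of a gene were averaged. Cpa3, a carboxypeptidase of mast cells, stood at -0.83 and Prg2, an eosinophil granule protein, at 0.91 (limma adjusted p = 0.62 for both). None of these 14 was listed at or under 0 in any of the 5 arrays.

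Il13, which shares the interleukin 4 receptor chain and acts on epithelium and macrophages, stood at -1.35 and -0.81 in Pb, against -1.43, -1.0 and -1.14 in controls. The groups overlapped, with a log2 difference of 0.11 (interval -0.48 to 0.70, limma adjusted p = 0.89). It was 0.45 when Pb replicate 1 was left out, -0.16 when Pb replicate 2 was, and -0.55 with no position correction, so no sign can be given for Il13. Il10, the regulatory cytokine that type 2 helper cells also make, stood at -0.10 and -0.62 in Pb, against 0.17, -0.26 and -0.17 in controls. Pb replicate 2 was the lowest of the 5 arrays and Pb replicate 1 lay among the controls. The log2 difference of Il10 was -0.27 (interval -0.85 to 0.32, limma adjusted p = 0.71), and without Pb replicate 2 it was -0.011.

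Il4ra, the receptor chain through which interleukins 4 and 13 both signal, stood at 2.88 and 3.11 in Pb, against 2.66, 2.99 and 2.81 in controls. Pb replicate 2 was the highest array, and Pb replicate 1 lay within the controls. The log2 difference was 0.17 (interval -0.29 to 0.63, limma adjusted p = 0.76). Its direction depended on the correction, at -0.37 with a surface that does not depend on level and -0.71 with the median of the neighbours subtracted instead, where the median of all probes tested was -0.21 and -0.11. Stat6, which carries the signal of that receptor to the nucleus, differed least between arrays. It stood at 3.93 and 3.88 in Pb, against 3.92, 4.01 and 3.97 in controls. The log2 difference was -0.065 (interval -0.45 to 0.32, limma adjusted p = 0.90), so changes beyond a fold of 0.732 to 1.25 lie outside the interval.

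Gata3, the master factor of type 2 helper cells, was lower in both Pb arrays than in every control after correction. Its log2 level was 1.83 and 1.59 in Pb, against 2.07, 2.17 and 2.07 in controls, where the SD was 0.058 (n = 3). The log2 difference was -0.39 (SE 0.17, interval -0.81 to 0.028), which did not pass (limma adjusted p = 0.62). As deposited the Pb arrays fell on opposite sides of the controls, with intensities of 2.89 and 9.44 in Pb, against 4.84, 4.78 and 4.09 in controls, and without position correction the difference was 0.20. After correction Gata3 differed from the control mean by -0.27 in Pb replicate 1 and -0.51 in Pb replicate 2. Its neighbours had medians of -0.16 and 0.028 there, so part of the value in Pb replicate 1 was shared with the probes around it. The difference was below 0 when any 1 of the 5 arrays was left out, from -0.51 to -0.27. Gata3 is expressed in T cells at large, and among 11 T cell markers 0 passed, with 2 above and 2 below every control. Of all probes without the filter, 13% lay above and 11.9% below. The 11 markers had a summed intensity of 116 and 101 in Pb, against 96.3 to 121 in controls. Their differences lay between -0.66 and 0.73 with a median of 0.0038. Those with the smallest p were Cd3e and Cd247, both chains of the CD3 complex, at 0.73 and 0.62 (limma adjusted p = 0.62 for both). Cd3d and Cd3g, also chains of that complex, had 0.035 and 0.0038. The markers below every control were Cd28 at -0.66 and Trat1 at -0.25. For Cd247 and Trat1 the brighter of 2 probes is given. None of the 11 was listed at or under 0. The part of T cell content in the value of Gata3 was not tested.

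Maf, the gene of c-Maf, was measured by 2 probes, neither of which passed. Probe 199016 stood at 4.03 and 3.55 in Pb, against 3.78, 3.88 and 3.92 in controls, and the Pb arrays lay on either side of them. Probe 309070 stood at 3.92 and 3.88 in Pb, against 3.87, 3.93 and 3.69 in controls. The log2 differences were -0.070 (interval -0.57 to 0.43, limma adjusted p = 0.92) and 0.076 (interval -0.34 to 0.49, adjusted p = 0.89). Without Pb replicate 2 the first was 0.17. As deposited the log2 differences of Pb replicate 2 from the control mean were 0.63 and 1.89, among neighbouring probes with medians of 1.24 and 2.11.

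Of the STAT6 targets, Retnla, which encodes a small secreted protein of macrophages, eosinophils and fat tissue, was lower in both Pb arrays. Its intensity as deposited was 1.74 and 0.568 in the Pb arrays, against 2.90, 2.25 and 2.08 in the control arrays. After correction it stood at 0.61 and 0.80 in Pb, against 1.37, 1.12 and 1.47 in controls, with the highest Pb array below the lowest control. The log2 difference of -0.62 (SE 0.19, interval -1.08 to -0.16) is a fold of 0.651, with bounds of 0.473 and 0.898. It did not pass over all probes (limma adjusted p = 0.62), and 12.7% of all probes tested lay below every control in the same way. As deposited, the neighbours of Retnla had a median difference from the control mean of 0.34 in Pb replicate 1 and -1.23 in Pb replicate 2. Retnla itself had -0.45 and -2.07, below them in both. The difference was below 0 in 18 of 18 alternatives, though those that change only the filter leave it as it is and could not turn its sign. It was -1.26 to -0.50 on the 5 arrays or with 1 of them left out, and -0.063 on 6 arrays as deposited. With both Pb arrays kept, its lowest adjusted p was 0.31 (limma), without position correction. In whole tissue, fewer cells that express a gene and less RNA per cell cannot be told apart.

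The cells that make Retnla were looked at through their own markers. Among 9 macrophage markers 0 passed, 0 lay above and 2 below every control, Marco at -0.52 and Mertk at -0.25, with a median of -0.25. Their summed intensity was 329 and 236 in Pb, against 303 to 357 in controls. Among 8 adipocyte markers 0 passed, 2 lay above and 0 below, Thrsp at 0.93 and Fabp4 at 0.53 (limma adjusted p = 0.62 for both), with a median of 0.47 and a summed intensity of 111 and 103 in Pb, against 87.4 to 98.1 in controls. Of all probes without the filter, 13% lay above and 11.9% below every control, and in lists this short such counts cannot be told from those shares. None of either list was listed at or under 0. The part of either cell type in the difference of Retnla was not tested.

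Arg1, the arginase of alternatively activated macrophages and of the liver, had its highest value in Pb replicate 2. Its intensity as deposited was 0.399 and 0.588 in the Pb arrays, against 0.322, 0.244 and 0.360 in the control arrays. After correction it stood at -1.47 and -0.087 in Pb, against -1.40, -1.93 and -1.68 in controls, so that Pb replicate 1 lay among the controls. Its mean was -0.78 in Pb and -1.67 in controls, so the probe reached the filter at -1.56 through the Pb arrays alone. The log2 difference of 0.89 had an interval from -0.29 to 2.08 without the filter and did not pass (limma adjusted p = 0.75, and 0.62 with the filter). It was 0.20 without Pb replicate 2 (adjusted p = 0.90). It was 1.50 without Pb replicate 1, where the spread of the single Pb array left is taken from the controls (adjusted p = 0.027, and 0.13 without the filter). In that fit 11.8% of all probes tested passed, 5.73% in the higher direction. Of 12 liver markers 5 were above the filter and 0 passed, and 3 lay above and 2 below every control. Of all probes without the filter, 13% lay above and 11.9% below. Cyp2e1, at 0.56, was among the higher markers and Apoa1, under the filter, at -1.32 among the lower. The summed intensity of the 12 was 21.1 and 19.1 in Pb, against 16.6 to 21.4 in controls. Apob, Ttr and Fga were listed at or under 0 in at least 1 array, and the part of liver RNA in the value of Arg1 was not tested. Retnla and Arg1, both marks of the same macrophage state, thus had differences of opposite sign, neither of which passed.

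The genes around type 2 help were taken from 6 lists of 90 genes, of which 81 were measured and 74 lay above the filter. In these lists 0 genes passed in either direction over all probes, and the smallest adjusted p was 0.31 (limma). Of the 81 genes 14 lay above every control in both Pb arrays and 7 below, 17.3% and 8.64%, against 13% and 11.9% of all probes without the filter. Their median log2 difference was -0.0052.

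Among 19 inducers, receptors and signalling genes of type 2 help, 4 lay above and 2 below every control, with a median of -0.042. The smallest p belonged to Il13ra1, the partner of Il4ra in the receptor for interleukin 13. It was read from 1 of 2 probes, that with the higher mean over Pb and control arrays, and the other is not given here. Its log2 difference was 0.93 (limma without the filter, adjusted p = 0.75), with -1.01 and -0.34 in Pb, against -1.43, -1.42 and -1.97 in controls. It reached the filter through the Pb arrays alone, as 1 of the 74 genes did. Jak1, a kinase bound to that receptor, had 0.38 (limma adjusted p = 0.62). Among 13 transcription factors, 2 lay above and 0 below, with a median of 0.021. Those above were Junb, which acts on Il4, at 0.32 and Notch1 at 0.20. Gfi1, a repressor that supports the growth of type 2 cells, had 0.64, and its groups overlapped. Gfi1 and Junb had the smallest p of this list (limma adjusted p = 0.62 and 0.63). Among 10 chemokines and homing receptors, 2 lay above and 0 below, with a median of 0.0018. These 2 were Ccl22, a ligand made by dendritic cells, at 0.30, and its receptor Ccr4, found on type 2 and regulatory T cells, at 0.39 (adjusted p = 0.62 for both).

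Among 11 other STAT6 targets of B cells and macrophages, 3 lay above and 1 below every control, with a median of 0.0022. Clec10a, a lectin of macrophages and dendritic cells, stood at 0.18 and 1.03 in Pb, against 0.033, -0.19 and -0.14 in controls, a difference of 0.70 (limma adjusted p = 0.62). Cdh1, a cadherin, lay under the filter at -5.28 and -6.35 in Pb, against -1.58, -1.45 and -4.12 in controls, near the bottom of the arrays, with a difference of -3.43 (limma without the filter, adjusted p = 0.75). Among 10 genes of interleukin 10 and regulation, 1 lay above and 2 below, with a median of -0.082, and Lag3, an inhibitory receptor of T cells, had 0.63 and Ahr, a ligand-gated transcription factor, -0.36 (adjusted p = 0.62 for both). Among 18 type 1 counterparts, 2 lay above and 2 below, with a median of -0.021. Tnf, an inflammatory cytokine, had -1.17 (adjusted p = 0.31) and Il18rap, a chain of the interleukin 18 receptor, -0.59 (adjusted p = 0.62). No probe with Ifng as its single symbol was found.

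**Figure D4:**
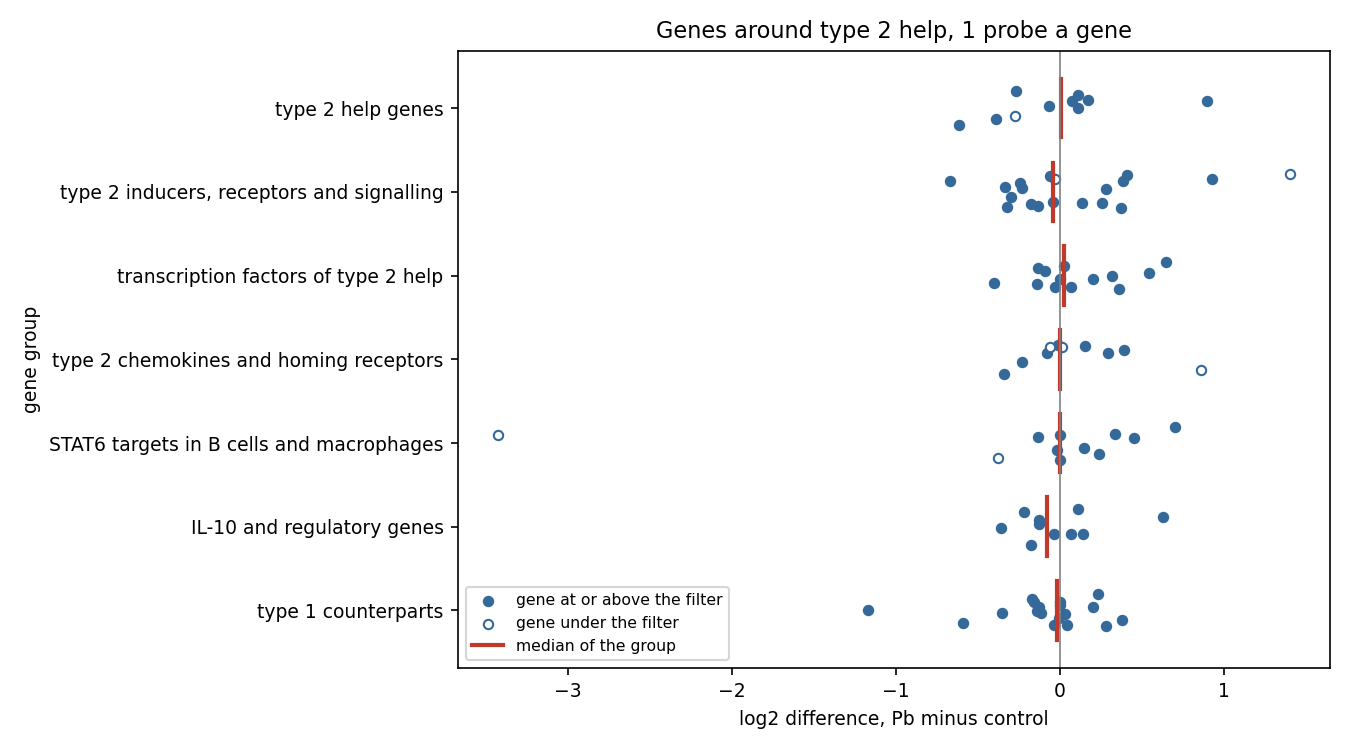
Log2 difference, Pb minus control, of each measured gene in the type 2 help genes and the 6 lists around them (filled, above the filter; open, under it), with the median of each group as a red line. The medians lie between -0.082 and 0.021, and Cdh1 at -3.43 and Il9r at 1.40, both under the filter, lie farthest from 0.

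**Figure D5:**
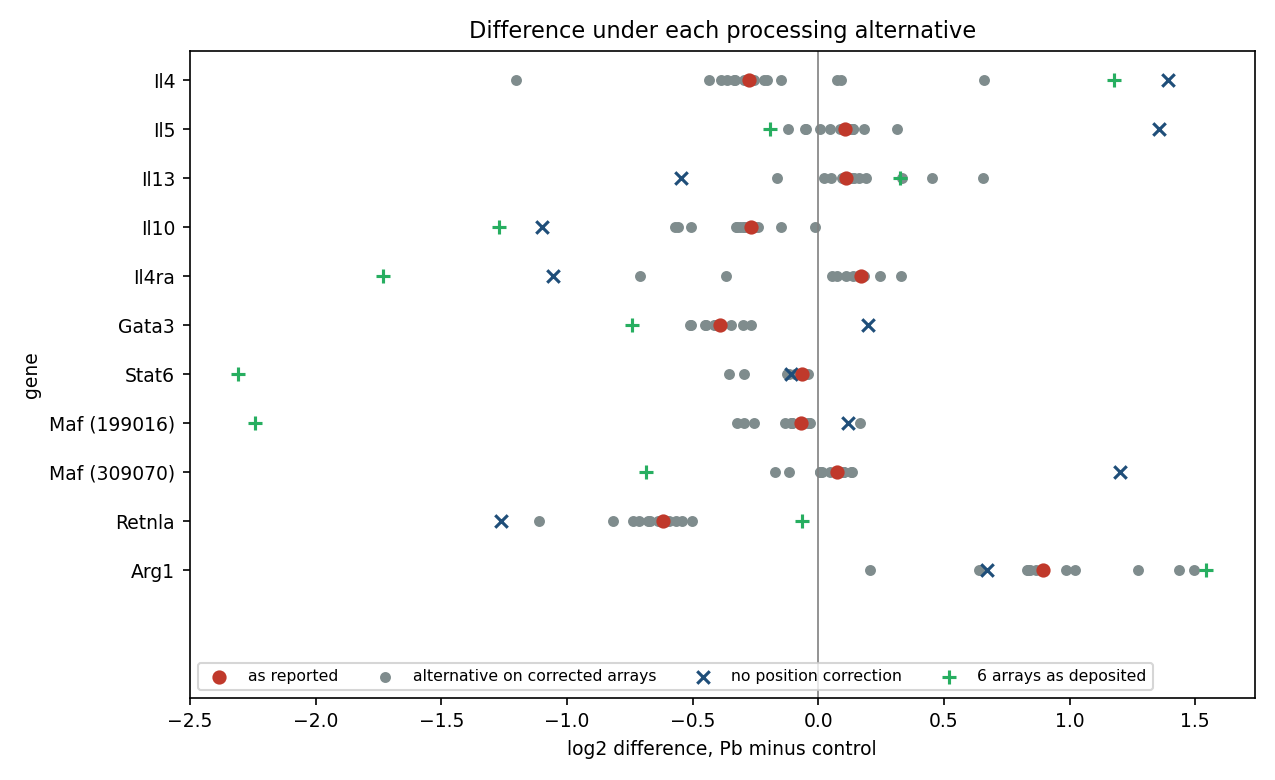
Log2 difference, Pb minus control, of each gene as reported (red), under each alternative on 5 arrays with a position correction (grey), without the correction (cross) and in 6 arrays as deposited (plus). Il10, Stat6 and Retnla stay below 0 and Arg1 above 0 throughout, while Il4, Il5, Il13, Il4ra, Gata3 and Maf take both signs.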

How the data were processed

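Spleen RNA of 6 mice was read on CodeLink mouse whole genome arrays in 1 colour (Cy5), per the labels. The authors deposited probe intensities on a linear scale, with array medians of 0.972 to 0.987, and their normalisation is not given in the sources used here. Of 35587 probes 21615 had 1 gene symbol in the platform annotation, 681 several and 13291 none, and 21487 of the first were found in the RefSeq table of GRCm38.p6, with 0 symbols changed. Values of 0 or less (151 to 711 an array) were set to the 1st percentile of the positive ones before log2 was taken. From each of 5 arrays a smooth surface over array row, column and level, fitted to its difference from the average of Pb replicate 1 and the controls, was removed in 2 rounds (mgcv 1.9.3, bam, 40, 8 and 6 basis functions). The r of Pb replicate 2 with controls was 0.66 to 0.67 before and 0.92 to 0.93 after, in part by construction. Its deviations stayed wider (median absolute deviation 0.59, against 0.24 to 0.29). Groups were compared with limma 3.58.1 in R 4.3.3 (lmFit, eBayes, two-sided). The correction and fit were also run on simulated arrays with log2 shifts of 2 in probes at or above the median level. That run does not cover smaller shifts or dimmer probes. Il4, under the filter, takes its values from the fit without it. The labels do not say whether animals came from separate litters, so p-values measure the spread between these arrays. The members, the lists and the correction were chosen with earlier results of these data known. Named beside the members were the 2 genes of each list with the smallest p in the fit without the filter, and Tnf. Il9r, Notch1, Tpsb2, Cd3d, Cd3g, Cd28, Trat1, Apob, Ttr and Fga are named after their values were seen. In the lists, a gene with several probes is given by that with the highest mean over the 5 arrays used.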

Additional observations from a re-analysis of the deposited data

Results flagged for a closer look

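In Pb replicate 3, which entered no comparison on 5 arrays, 3 of the genes had a deposited log2 intensity above every control. They were Il13 at 0.99, Retnla at 3.59 and Arg1 at 1.58. Across probes that array had r of 0.046 to 0.048 with the controls and 0.046 to 0.057 with the other Pb arrays, so they cannot be read as levels of these genes.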

How the results depend on the processing

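Of 198 comparisons of the 11 probes with an alternative, 176 kept direction and side of the adjusted threshold, 21 took the other sign without passing, and 1 passed, Arg1 without Pb replicate 1. Il10, Stat6, Retnla and Arg1 kept their sign in 18 of 18. The alternatives that change only the filter leave every difference as it is, so no sign could turn in them. They count among the 176 and the 18. The 6 arrays as deposited hold Pb replicate 3, whose values cannot be read as levels of these genes. Other signs were taken without position correction by Il4 (1.39), Il13 (-0.55), Il4ra (-1.06), Gata3 (0.20) and Maf probe 199016 (0.12). With a surface that does not depend on level they were taken by Il5 (-0.12), Il4ra (-0.37) and Maf probe 309070 (-0.17). With the median of neighbouring probes subtracted, an alternative chosen after seeing the data, they were Il5 (-0.050), Il4ra (-0.71) and Maf probe 309070 (-0.11). In the 6 arrays as deposited they were Il4 (1.18), Il5 (-0.19), Il4ra (-1.73) and Maf probe 309070 (-0.69). With 1 array left out, the range was -1.20 to 0.66 for Il4, -0.055 to 0.31 for Il5, -0.16 to 0.45 for Il13, -0.30 to 0.17 for Maf probe 199016 and 0.20 to 1.50 for Arg1. The median of the 10 genes moved by more than its spread between arrays (SD 0.058) with the surface without level (-0.28), scaling to the 75th percentile (-0.056), the neighbour median (-0.22), 6 arrays (-0.44) and Pb replicate 1 left out (-0.059), and was -0.059 to 0.047 with any 1 array left out. The median of all probes tested shifted too, by -0.23 with the surface without level, -0.13 with the neighbour median, -0.17 without position correction and -0.43 in 6 arrays. It shifted by 0.044 with Pb replicate 1 left out and by -0.061 with scaling to the 75th percentile, which moves the difference of every probe by the same amount. Averaging the probes of a gene moved the medians of the 10 genes and of the 6 lists around them by less than their spread between arrays. In the marker lists, whose spread was not computed, it gave -0.012 in place of 0.083 for liver. For the eosinophil, mast cell and basophil markers it gave 0.00080 in place of 0.051. Over the whole table, 14 probes passed the adjusted threshold, and the number was 22 with a pseudocount of 0.1, 7 with array weights, 0 in each of no filter, no position correction and 6 arrays, 2886 without Pb replicate 1, 18 without Pb replicate 2, and 4, 3 and 6 without control replicates 1, 2 and 3. At an unadjusted p under 0.05 there were 1768, or 915 with array weights, 3606 with no position correction, 7494 without Pb replicate 1, 1947 without Pb replicate 2, and 981, 787 and 877 without control replicates 1, 2 and 3. Replicate numbers have no stated meaning across the groups, and arrays of the same number had deviations with r of 0.029 and -0.0039. In the fit with the replicate block, 1039 probes had an unadjusted p under 0.05, Il4 had a log2 difference of 0.074, and 0 of the 11 probes passed. The cause of these changes was not tested. Il4, the 1 gene under the filter, had the widest interval, -1.99 to 1.45, and Arg1 the next.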
